A study of Mus musculus with 8 samples.

Results

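The 7 genes Srebf2, Insig1, Hmgcs1, Idi1, Fdft1, Sqle and Dhcr7 make and control cholesterol, and they were followed here in the hippocampus of Kat6a+/- and WT mice. They were taken by gene symbol from a table of 54532 genes. All 7 had 1 entry each and passed the minimum of 0.5 FPKM on average that a gene needed for testing, as did 14159 genes in all. FPKM is the number of reads per kilobase of gene length after scaling each library for its depth. No member is a lipoprotein receptor, so cholesterol uptake was examined through a separate list further on.

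The hippocampi came from adult mice, and 4 RNA libraries carry the label Kat6a+/- and 4 the label WT. Kat6a+/- animals carry 1 altered copy of Kat6a, the gene of a histone acetyltransferase. The labels give no further detail of the allele, the strain, the age, the sex or the handling, and they do not say that each library came from its own animal, so the spread behind each p-value is that among libraries and may be technical. The study's title links KAT6A to cognition through RSPO2 and Wnt signalling in the CA3 field, and cholesterol synthesis is not named there.

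Reads counted to genes numbered 17730609 to 27875310 per library in Kat6a+/- and 16462428 to 22047643 per library in WT. Kat6a measured 6.06 to 7.64 FPKM in Kat6a+/- libraries and 8.55 to 9.71 FPKM in WT libraries, so each Kat6a+/- library lay below each WT library. Its log2 fold change was -0.36 in limma, which did not call it (adjusted p = 0.9998). Nor did edgeR (adjusted p = 0.451 with TMM, 0.555 with DESeq2 size factors) or limma-voom (adjusted p = 0.499). DESeq2 alone called Kat6a (adjusted p = 0.00639 on the same genes, 0.0166 on genes with over 1 read). The Y-linked gene Ddx3y lay between 10.4 and 12.1 FPKM in the 8 libraries and Xist at no more than 0.0270 FPKM. By these genes all 8 libraries read as male tissue, so female mice were not covered. No marker on the lists for neurons, glia, vessels and choroid plexus was at 0 in all libraries. Summed excitatory neuron markers reached 2263 to 2472 FPKM in Kat6a+/- and 2097 to 2382 FPKM in WT.

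Cholesterol cannot pass from the blood into the brain in useful amounts, so brain cells build it from acetyl-CoA by the mevalonate pathway and the sterol steps that follow. In the adult brain astrocytes and oligodendrocytes make much of it. Astrocytes export it on lipoproteins to neurons, and oligodendrocytes need it for myelin. The pathway is set by feedback: when membranes hold little sterol, the transcription factor precursor SREBP2 is released from the endoplasmic reticulum and cut, and its active part switches on the synthesis genes together with its own brake, Insig1.

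SREBP2 binds sterol regulatory elements near the start sites of its target genes, usually beside sites for NF-Y and Sp1. Promoter sequences from RefSeq (GRCm38.p6) were found for 5 of the 7 members, in 7 windows since Dhcr7 has 3 listed starts. The upstream sequences of Hmgcs1, Srebf2 and Insig1 are shown because they stand for an enzyme gene, the regulator and the brake; the first 2 hold sterol element letters and that of Insig1 does not. All 3 are on the plus strand, and the stretches are chr13:119690101-119690350, chr15:82147019-82147180 and chr5:28071162-28071362. Each stops before both the RefSeq start and the gene start in the deposited table. Capitals mark TCACCCCA with any C that follows it, CCAAT (NF-Y), GGGCGG (GC box, bound by Sp1) and CACGTG (E-box), each on either strand.
Hmgcs1: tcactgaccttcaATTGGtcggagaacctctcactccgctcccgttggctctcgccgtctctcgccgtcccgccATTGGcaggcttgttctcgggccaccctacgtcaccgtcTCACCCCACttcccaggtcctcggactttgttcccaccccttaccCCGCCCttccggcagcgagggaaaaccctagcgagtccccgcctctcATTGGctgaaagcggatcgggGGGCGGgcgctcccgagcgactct
Srebf2: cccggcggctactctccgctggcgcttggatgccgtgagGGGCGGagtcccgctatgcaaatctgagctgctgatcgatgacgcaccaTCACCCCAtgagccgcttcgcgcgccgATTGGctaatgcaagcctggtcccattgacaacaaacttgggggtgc
Insig1: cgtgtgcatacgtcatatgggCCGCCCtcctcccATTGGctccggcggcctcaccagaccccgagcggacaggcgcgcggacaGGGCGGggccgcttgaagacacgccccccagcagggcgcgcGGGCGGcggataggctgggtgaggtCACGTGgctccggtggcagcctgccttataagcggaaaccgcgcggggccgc

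The sterol element letters TCACNCCAC stood in 1 of the 7 windows of 250 bases, that of Hmgcs1, and in 1.05% of all 32851 RefSeq windows of the same length. The shorter TCACCCCA, which overlaps it, stood in 2 of 7, those of Hmgcs1 and Srebf2, and in 1.34% of all windows. CCAAT stood in 5 of 7 member windows and in 33.8% of all. GGGCGG stood in 6 of 7 and in 32.7% of all. CACGTG stood in 2 of 7, those of Insig1 and of 1 start of Dhcr7, and in 6.02% of all. These matches describe letters only, and the motifs were chosen after the sequences had been seen.

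None of the 7 genes passed the test for a difference between the genotypes. On the log2(FPKM + 0.5) scale, the differences of Kat6a+/- from WT ran from -0.04 for Dhcr7 to 0.09 for Srebf2, with 4 positive and 3 negative. Expressed as means, Kat6a+/- levels were 97.2% to 106% of WT levels, and the groups overlapped in all 7 genes. The 95% intervals in limma, taken over the members, ran from 87.7% to 115.4% of WT at their outer ends. These limits are on the FPKM + 0.5 scale, unlike the percentages of mean FPKM.

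By limma with Benjamini-Hochberg adjustment over all tested genes, 0 of 7 members were called, beside 0.0% of the 14159 tested genes. At an unadjusted p under 0.05 there were also 0 members, beside 4.41% of tested genes (624 genes; 1.78% higher and 2.63% lower in Kat6a+/-). In 0 members did the groups fail to overlap, beside 2.62% of tested genes (1.09% higher and 1.53% lower). The adjusted p was 0.9998 for each member. edgeR, DESeq2 and limma-voom on reads recovered from the FPKM values gave 0 members called and 0 at an unadjusted p under 0.05. DESeq2 called 0.0353% of the genes it gave an adjusted p. The members' median log2 fold change was 0.00016, beside 0.0010 over all tested genes. In bulk tissue, fewer cells of a type and less RNA per cell cannot be told apart.

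**Figure D1:**
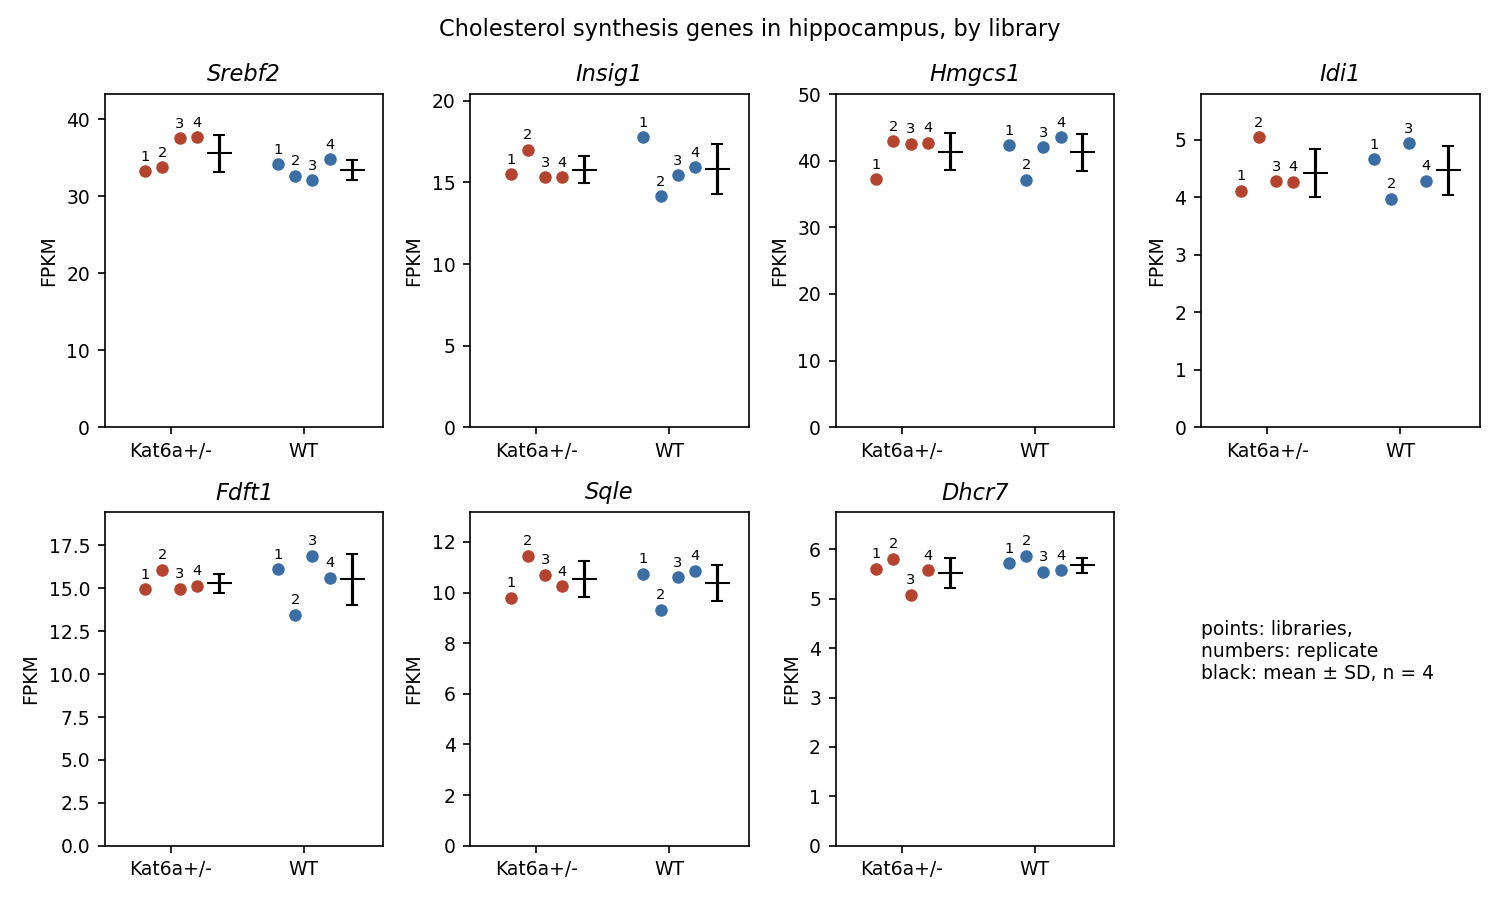
FPKM of each member gene by library, with Kat6a+/- left of WT, 1 point per library numbered by replicate, and the mean ± SD (n = 4) in black. All axes start at 0, and the genotypes overlap in every panel.

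Of the regulators, Srebf2 encodes the SREBP2 precursor. Its gene, ENSMUSG00000022463, spans chr15:82147181-82205379 in GRCm38 (plus strand). It measured 33.2, 33.8, 37.5 and 37.7 FPKM in Kat6a+/- replicates 1 to 4 and 34.2, 32.6, 32.1 and 34.8 FPKM in WT replicates 1 to 4. Kat6a+/- replicates 3 and 4 stood above all WT libraries, while replicates 1 and 2 lay within the WT range. The means were 35.6 ± 2.38 FPKM in Kat6a+/- and 33.4 ± 1.26 FPKM in WT (SD, n = 4 each). On the log2 scale the difference was 0.09 ± 0.05 (SE; 95% interval -0.03 to 0.21). It had the smallest p of the 7 members, at an unadjusted p of 0.136 in limma and an exact two-sided permutation p of 0.200 over the 70 possible assignments, where 0.0286 is the smallest possible.

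The difference in Srebf2 was uneven across replicate numbers. In replicates 1 and 2 the means were 33.5 FPKM in Kat6a+/- and 33.4 FPKM in WT, and in replicates 3 and 4 they were 37.6 FPKM in Kat6a+/- and 33.4 FPKM in WT, with 2 libraries in each. On the log2 scale the Srebf2 difference was 0.0049 in replicates 1 and 2 and 0.17 in replicates 3 and 4. The other members moved in the opposite direction, by unlike amounts. Fdft1 went from 0.07 to -0.11 and Idi1 from 0.07 to -0.10 between the same replicates. Sqle went from 0.08 to -0.04, Insig1 from 0.03 to -0.03, Hmgcs1 from 0.013 to -0.0049 and Dhcr7 from -0.02 to -0.06. The labels do not say that replicate numbers mark a batch, and the change with replicate number was not tested. Mir33, a microRNA gene inside an intron of Srebf2, was listed at 0 in all 8 libraries.

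Insig1 encodes a membrane protein that holds SREBP precursors in the endoplasmic reticulum while sterols are plentiful. The gene is ENSMUSG00000045294 at chr5:28071363-28078662, plus strand. Its values were 15.5, 17.0, 15.3 and 15.3 FPKM in Kat6a+/- and 17.8, 14.1, 15.5 and 15.9 FPKM in WT. WT replicates 1 and 2 were the highest and lowest of all 8 libraries, and the Kat6a+/- libraries lay between them. The means were 15.8 ± 0.821 FPKM in Kat6a+/- and 15.8 ± 1.51 FPKM in WT (SD, n = 4 each). Their difference was 0.00016 ± 0.07 in log2 units (SE; 95% interval -0.15 to 0.15; unadjusted p = 0.998 in limma).

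Hmgcs1 encodes the cytosolic synthase that makes HMG-CoA at the head of the mevalonate pathway. The gene, ENSMUSG00000093930, occupies chr13:119690379-119708260 (plus strand), where an antisense gene, Gm48342, shares 557 exonic bases and had 38 reads over the 8 libraries beside 30530 for Hmgcs1. It measured 37.3, 43.0, 42.6 and 42.7 FPKM in Kat6a+/- and 42.3, 37.1, 42.1 and 43.6 FPKM in WT. One library of each genotype, Kat6a+/- replicate 1 and WT replicate 2, stood below the other 6. The means were 41.4 ± 2.76 FPKM in Kat6a+/- and 41.3 ± 2.83 FPKM in WT (SD, n = 4 each), with a log2 fold change of 0.0042 ± 0.06 (SE; 95% interval -0.14 to 0.15; unadjusted p = 0.949 in limma).

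Idi1 encodes the isomerase that turns isopentenyl diphosphate into dimethylallyl diphosphate, the starter unit for longer isoprenoids. The gene, ENSMUSG00000058258, is at chr13:8885501-8892451 (plus strand), and the antisense gene Gm48574 that overlaps it by 323 exonic bases had 0 reads. Its values were 4.11, 5.05, 4.27 and 4.27 FPKM in Kat6a+/- and 4.66, 3.98, 4.94 and 4.29 FPKM in WT. Kat6a+/- replicate 2 was the highest library and WT replicate 2 the lowest. Means of 4.43 ± 0.420 FPKM in Kat6a+/- and 4.47 ± 0.423 FPKM in WT (SD, n = 4 each) gave a log2 fold change of -0.01 ± 0.08 (SE; 95% interval -0.19 to 0.17; unadjusted p = 0.890 in limma). It had the fewest reads of the members, 230 to 415 per library, and the widest interval.

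Fdft1 encodes squalene synthase, which joins farnesyl units in the first step that commits them to sterols. The gene is ENSMUSG00000021273 at chr14:63145150-63179578, minus strand. It measured 14.9, 16.1, 15.0 and 15.1 FPKM in Kat6a+/- and 16.1, 13.5, 16.9 and 15.6 FPKM in WT. The WT libraries held both the highest value, in replicate 3, and the lowest, in replicate 2. Kat6a+/- averaged 15.3 ± 0.537 FPKM and WT 15.5 ± 1.48 FPKM (SD, n = 4 each), a log2 fold change of -0.02 ± 0.07 (SE; 95% interval -0.17 to 0.13; unadjusted p = 0.799 in limma). Fdft1 shares 774 exonic bases with Ctsb on the opposite strand in GENCODE M21. Ctsb had 78636 reads over the 8 libraries and Fdft1 10552. Whether the counting used strand is not given in the sources used here, so reads from that stretch cannot be assigned with certainty.

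Sqle encodes squalene epoxidase, the oxygen-requiring step before the sterol ring is closed. The gene is ENSMUSG00000022351 at chr15:59315077-59331192, plus strand. Its values were 9.79, 11.5, 10.7 and 10.2 FPKM in Kat6a+/- and 10.7, 9.32, 10.6 and 10.9 FPKM in WT. As for Hmgcs1, WT replicate 2 and Kat6a+/- replicate 1 were the lowest libraries. The mean was 10.5 ± 0.714 FPKM in Kat6a+/- and 10.4 ± 0.717 FPKM in WT (SD, n = 4 each), for a log2 fold change of 0.02 ± 0.06 (SE; 95% interval -0.12 to 0.16; unadjusted p = 0.742 in limma).

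Dhcr7 encodes the reductase of the final step from 7-dehydrocholesterol to cholesterol. The gene is ENSMUSG00000058454 at chr7:143823145-143848410, plus strand. It measured 5.61, 5.81, 5.08 and 5.57 FPKM in Kat6a+/- and 5.71, 5.87, 5.54 and 5.58 FPKM in WT. Kat6a+/- replicate 3 was the lowest library, and the other 7 lay between 5.54 and 5.87 FPKM. Kat6a+/- libraries averaged 5.52 ± 0.310 FPKM and WT libraries 5.68 ± 0.150 FPKM (SD, n = 4 each), and the log2 fold change was -0.04 ± 0.05 (SE; 95% interval -0.16 to 0.08; unadjusted p = 0.466 in limma).

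Levels per gene length differed among the members, with Hmgcs1 at the top and Idi1 at the bottom. Over the 8 libraries the mean was 41.3 ± 2.59 FPKM for Hmgcs1, 34.5 ± 2.11 FPKM for Srebf2, 15.8 ± 1.12 FPKM for Insig1 and 15.4 ± 1.04 FPKM for Fdft1 (SD, n = 8). It was 10.5 ± 0.668 FPKM for Sqle, 5.60 ± 0.241 FPKM for Dhcr7 and 4.45 ± 0.391 FPKM for Idi1 (SD, n = 8). Insig1 and Fdft1 did not differ beyond their spread, although Insig1 was the higher in 7 of 8 libraries. The ranges of Hmgcs1 and Srebf2 overlapped, from 37.1 FPKM upward and up to 37.7 FPKM, while Hmgcs1 was the higher in 8 of 8 libraries. For the remaining neighbours in this order the ranges did not overlap, with Dhcr7 and Idi1 closest, at a lowest value of 5.08 FPKM and a highest value of 5.05 FPKM. Hmgcs1 stood above 92.6% of tested genes and Idi1 above 46.5%.

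The spread within genotypes was near that of tested genes as a whole for 5 members and lower for Srebf2 and Dhcr7. The residual SD on the log2(FPKM + 0.5) scale ran from 0.059 for Dhcr7 to 0.121 for Idi1, beside a median of 0.105 over all tested genes. For Dhcr7, 87.4% of tested genes had a larger residual SD, for Srebf2 72.5%, and for the other 5 members 40.7% to 57.4%. These shares are over tested genes of any level, and genes of like level were not compared.

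The library with the lowest value was shared by most enzyme genes and Insig1. In WT replicate 2, Hmgcs1, Idi1, Fdft1, Sqle and Insig1 each had their lowest value of the 8 libraries. Kat6a+/- replicate 1 came second lowest for Hmgcs1, Idi1, Fdft1 and Sqle. Kat6a+/- replicate 2 was the highest Kat6a+/- library for 6 of the 7 members, Srebf2 being the exception. The summed level of the 7 members was 120.5, 132, 130.5 and 131 FPKM in Kat6a+/- replicates 1 to 4 and 131, 117, 128 and 131 FPKM in WT replicates 1 to 4.

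Over the 8 libraries, Pearson's r of log2 levels was between 0.548 and 0.870 for the 10 pairs among these 5 genes, with a median of 0.719. The 5 were picked after their values had been seen, so this range is a description. For the 11 pairs that involve Srebf2 or Dhcr7 it ran from -0.630 to 0.489, with a median of -0.104. Taken as deviations from the genotype means, the first range was 0.548 to 0.875 and the second -0.555 to 0.568. Without the 2 libraries farthest from the median of 1 gene of the pair, the first range was -0.437 to 0.880, with a median of 0.693. The second was then -0.440 to 0.680, with a median of 0.138. Hmgcs1 turned negative with Fdft1 (-0.437) and with Idi1 (-0.404) when WT replicate 2 and Kat6a+/- replicate 1 were left out.

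All 21 pairs of members were tested by exact permutation of the library pairings, with adjustment over the 21. Idi1 and Fdft1 gave the one Pearson correlation past the threshold (r = 0.867, exact two-sided permutation p = 0.00201, adjusted p = 0.0422). Their rank correlation did not pass (Spearman's rho = 0.905, exact permutation p = 0.00456, adjusted p = 0.0958). Without the 2 libraries farthest from the median of Idi1, Kat6a+/- replicate 2 and WT replicate 3, r was 0.880. WT replicate 2, the lowest library for both genes, stayed in, and the pair was not tested without it. Hmgcs1 and Sqle had r = 0.870 (exact permutation p = 0.00846, adjusted p = 0.0888) and Spearman's rho = 0.810 (exact permutation p = 0.0218, adjusted p = 0.152). Without WT replicate 2 and Kat6a+/- replicate 1, the 2 libraries farthest from the median of Hmgcs1, their r was 0.337. Leaving these out also narrows the range of Hmgcs1, and the fall in r was not tested.

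**Figure D2:**
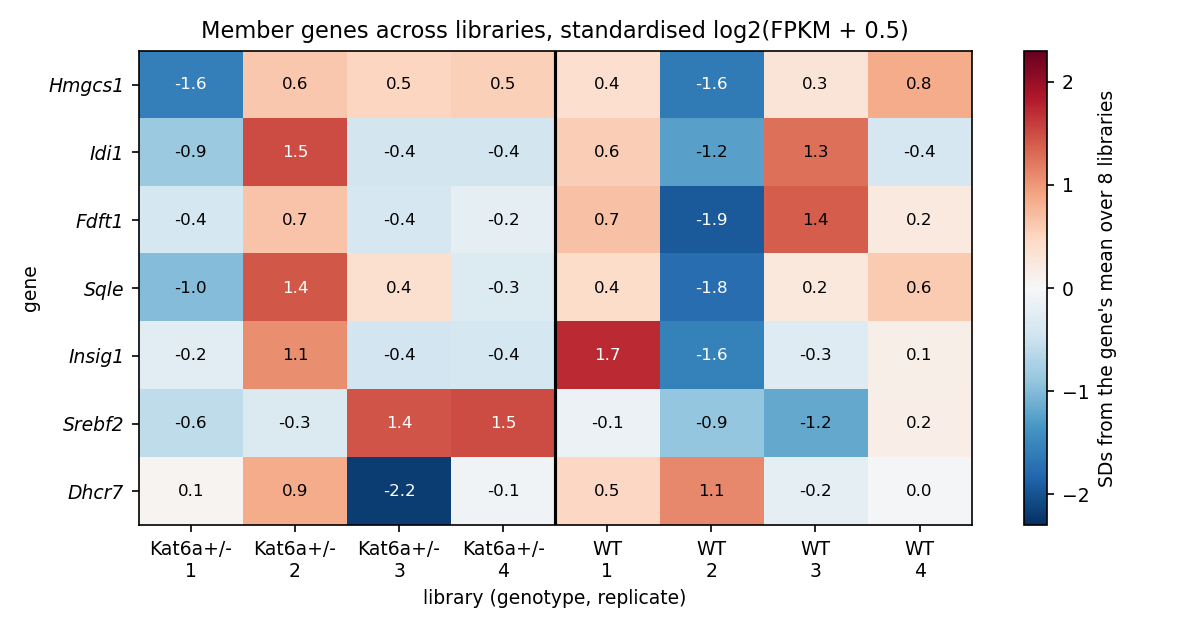
Log2(FPKM + 0.5) of each member in each library, as SDs from the gene's mean over 8 libraries, with Kat6a+/- libraries left of the line and WT libraries right of it. The first 5 rows are low together in WT replicate 2 and, except Insig1, lowest among Kat6a+/- libraries in replicate 1, while Srebf2 is high in Kat6a+/- replicates 3 and 4 and Dhcr7 low in Kat6a+/- replicate 3.

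Depth and cell markers differed among the same libraries. By reads counted to genes, Kat6a+/- replicate 1 was the deepest library, with 27875310, and WT replicate 2 the shallowest, with 16462428. The 13 astrocyte markers summed to 913, 1017, 966 and 931 FPKM in Kat6a+/- and 1098, 970.1, 979 and 1027 FPKM in WT. The 13 oligodendrocyte markers summed to 1092, 967, 872 and 1036 FPKM in Kat6a+/- and 722, 835, 1055 and 1029.6 FPKM in WT. Of the tested astrocyte markers 10 of 13 had negative log2 fold changes, with a median of -0.07, and of the oligodendrocyte markers 13 of 13 had positive ones, with a median of 0.13. Choroid plexus and ependymal markers were positive in 7 of 7 tested, with summed levels of 19.9 to 131 FPKM in Kat6a+/- (131 in replicate 2) and 13.3 to 26.7 FPKM in WT, and 11 of 12 interneuron markers were negative. At an unadjusted p under 0.05 in limma stood 3 of 7 choroid plexus and ependymal markers (higher), 4 of 12 interneuron markers (lower), 2 of 13 astrocyte markers (lower) and 0 of 13 oligodendrocyte markers, beside 4.41% of all tested genes, and 0 were called after adjustment. The part of depth and of cell makeup in the members' values was not tested.

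**Figure D3:**
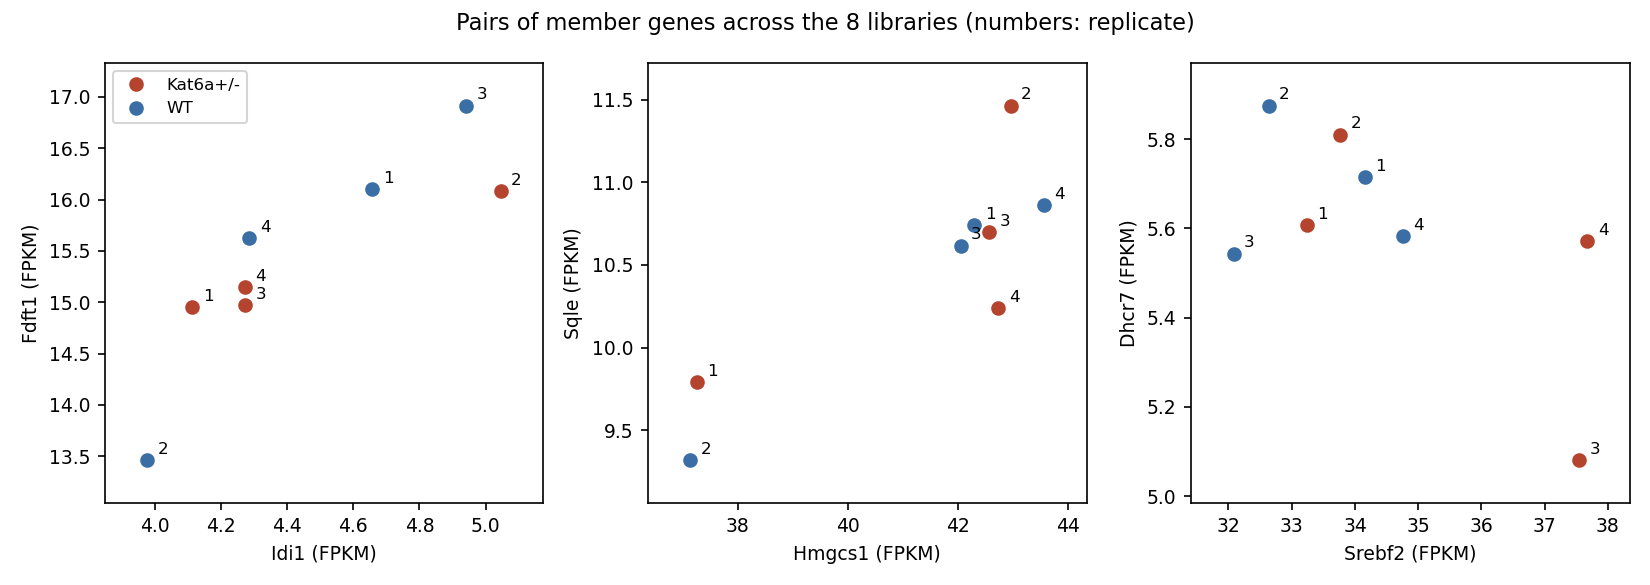
FPKM of Fdft1 against Idi1, Sqle against Hmgcs1 and Dhcr7 against Srebf2 in the 8 libraries, coloured by genotype and numbered by replicate, on axes that do not start at 0. Idi1 and Fdft1 line up across both genotypes (r = 0.867), the points for Hmgcs1 and Sqle split into 2 low libraries and 6 others, and Srebf2 and Dhcr7 passed no test (r = -0.630, exact permutation p = 0.0942, adjusted p = 0.220; Spearman's rho = -0.381, exact permutation p = 0.360), with r = -0.019 without Kat6a+/- replicates 3 and 4.

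Among 13989 tested genes outside the lists, the 6 whose log2 levels over the 8 libraries followed the mean standardised profile of the members most closely were Mir8102, Zfx, Aass, Limd1, Chst10 and Slc31a1. They were picked as the best matches of all these genes, so their likeness is by choice and carries no p. Mir8102 had 0 to 8 reads per library. Zfx, an X-linked zinc finger gene, ranged from 2.69 to 3.04 FPKM, and Chst10, a sulfotransferase gene, from 4.40 to 4.77 FPKM. Slc31a1, a copper transporter gene, ranged from 3.65 to 4.61 FPKM, Limd1 from 1.24 to 1.89 FPKM, and Aass, of lysine breakdown, from 0.905 to 1.54 FPKM.

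The rest of the sterol pathway was read from a list of 16 other mevalonate and sterol enzymes. Fdps was listed at 0.04 to 0.17 FPKM (3 to 17 reads per library) and fell below the minimum. Whether so low a count reflects its expression or the counting of its reads was not tested. The other 15 enzymes were tested. None was called in limma, 5 had positive and 10 negative log2 fold changes, and the median was -0.03. Hsd17b7, a sterol 3-ketoreductase between the ring closure and cholesterol, had the smallest p of them. It measured 4.40, 4.71, 4.23 and 4.44 FPKM in Kat6a+/- and 5.25, 4.88, 4.85 and 4.97 FPKM in WT. All Kat6a+/- libraries lay below all WT libraries, in a comparison where 1.53% of tested genes did so. In log2 units this was -0.15 ± 0.05 (SE; unadjusted p = 0.0153, adjusted p = 0.9998 in limma). The authors' deposited table gives Hsd17b7 -0.17 in log2 units (adjusted p = 0.9998), and none of the 7 members stands among its 605 genes.

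Acat2, the cytosolic thiolase that feeds Hmgcs1, averaged 10.1 ± 0.566 FPKM in Kat6a+/- and 10.98 ± 0.822 FPKM in WT (SD, n = 4 each), with overlap. Lbr, a sterol reductase of the inner nuclear membrane, averaged 1.90 ± 0.120 FPKM in Kat6a+/- and 1.66 ± 0.195 FPKM in WT, also with overlap.

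None of 10 tested SREBP and sterol sensing genes was called, with 7 positive and 3 negative log2 fold changes and a median of 0.02. Named from this list were Rnf139, a ubiquitin ligase of the endoplasmic reticulum, at 4.29 ± 0.250 FPKM in Kat6a+/- and 4.01 ± 0.171 FPKM in WT, and Mbtps2, the protease that makes the final cut in SREBP precursors, at 3.55 ± 0.159 FPKM in Kat6a+/- and 3.32 ± 0.234 FPKM in WT. The genotypes overlapped in both genes. Without WT replicate 1 the log2 fold change of Mbtps2 was 0.04 in place of 0.08.

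Uptake of lipoproteins was represented by 10 receptors and their regulators, of which 9 were tested. None was called, 7 were positive and 2 negative, and the median log2 fold change was 0.02. Sort1, which encodes the sorting receptor sortilin, averaged 119 ± 8.56 FPKM in Kat6a+/- and 109.9 ± 9.24 FPKM in WT (SD, n = 4 each). Sorl1, a related sorting receptor, averaged 53.5 ± 5.33 FPKM in Kat6a+/- and 48.5 ± 4.89 FPKM in WT. Without WT replicate 1 the log2 fold change of Sort1 was 0.05 in place of 0.12 and that of Sorl1 0.07 in place of 0.14. Lrpap1, a chaperone of the receptor family, averaged 34.7 ± 0.940 FPKM in Kat6a+/- and 36.1 ± 0.522 FPKM in WT, without overlap, at an unadjusted p of 0.160 in limma; its log2 fold change of -0.06 was -0.04 without Kat6a+/- replicate 3.

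Of 17 genes for sterol efflux, transport, storage and clearance, 16 were tested and none was called, with 3 positive and 13 negative log2 fold changes and a median of -0.04. Apoe, the main lipoprotein carrier that astrocytes secrete, measured 687, 667, 636 and 651 FPKM in Kat6a+/- and 785, 722, 695 and 715 FPKM in WT. Each Kat6a+/- library lay below each WT library. The means were 660.4 ± 21.8 FPKM in Kat6a+/- and 729 ± 39.0 FPKM in WT (SD, n = 4 each), which is 90.5%. The difference was -0.14 ± 0.05 in log2 units (SE; 95% interval -0.25 to -0.03; unadjusted p = 0.0158, adjusted p = 0.9998 in limma). The exact permutation test (two-sided) gave p = 0.0286, its lower limit with 4 libraries against 4. The authors' deposited table lists Apoe at -0.14 in log2 units (adjusted p = 0.9998). The astrocyte markers given above lay in the same direction, and their part in the Apoe values was not tested. Npc2, which moves cholesterol out of lysosomes, averaged 8.11 ± 0.381 FPKM in Kat6a+/- and 8.68 ± 0.457 FPKM in WT, and Stard3, a sterol transfer protein of late endosomes, had a log2 fold change of -0.09, both with overlap. For Stard3 the value was -0.04 without Kat6a+/- replicate 2, -0.06 without Kat6a+/- replicate 3, -0.17 without Kat6a+/- replicate 4 and -0.05 without WT replicate 3, and Npc2 was at -0.06 without WT replicate 1.

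None of 11 enzymes of the isoprenoid branches was called (6 positive, 5 negative, median log2 fold change 0.0045), and none of 12 genes of fatty acid synthesis and desaturation (3 positive, 9 negative, median -0.05). Fnta, a subunit of protein farnesyl and geranylgeranyl transferases, averaged 11.4 ± 0.456 FPKM in Kat6a+/- and 12.1 ± 0.183 FPKM in WT (SD, n = 4 each), without overlap, at an unadjusted p of 0.0847 in limma. Fnta lies on the chromosome of Kat6a, at chr8:25998722-26015650, with Kat6a at chr8:22859535-22943259. The part of this position in the Fnta values was not tested. Pdss1, of coenzyme Q side chain synthesis, had a log2 fold change of 0.21, which was 0.11 without Kat6a+/- replicate 1 and 0.33 with limma-voom. Dhdds, of dolichol synthesis, had 0.05, with 0.03 without Kat6a+/- replicate 4 and 0.04 without WT replicate 2. The desaturase genes Fads2 and Fads1 had log2 fold changes of -0.11 and -0.06, and the elongase gene Elovl5 -0.07. Without WT replicate 1, Fads1 was at -0.03 and Elovl5 at -0.04. Over these 6 lists, 2 of 73 tested genes had an unadjusted p under 0.05, Hsd17b7 and Apoe, beside 4.41% of all tested genes. The groups did not overlap in 4 of the 73, Hsd17b7, Lrpap1, Apoe and Fnta, all lower in Kat6a+/-, beside 1.53% of all tested genes lower and 1.09% higher without overlap.

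**Figure D4:**
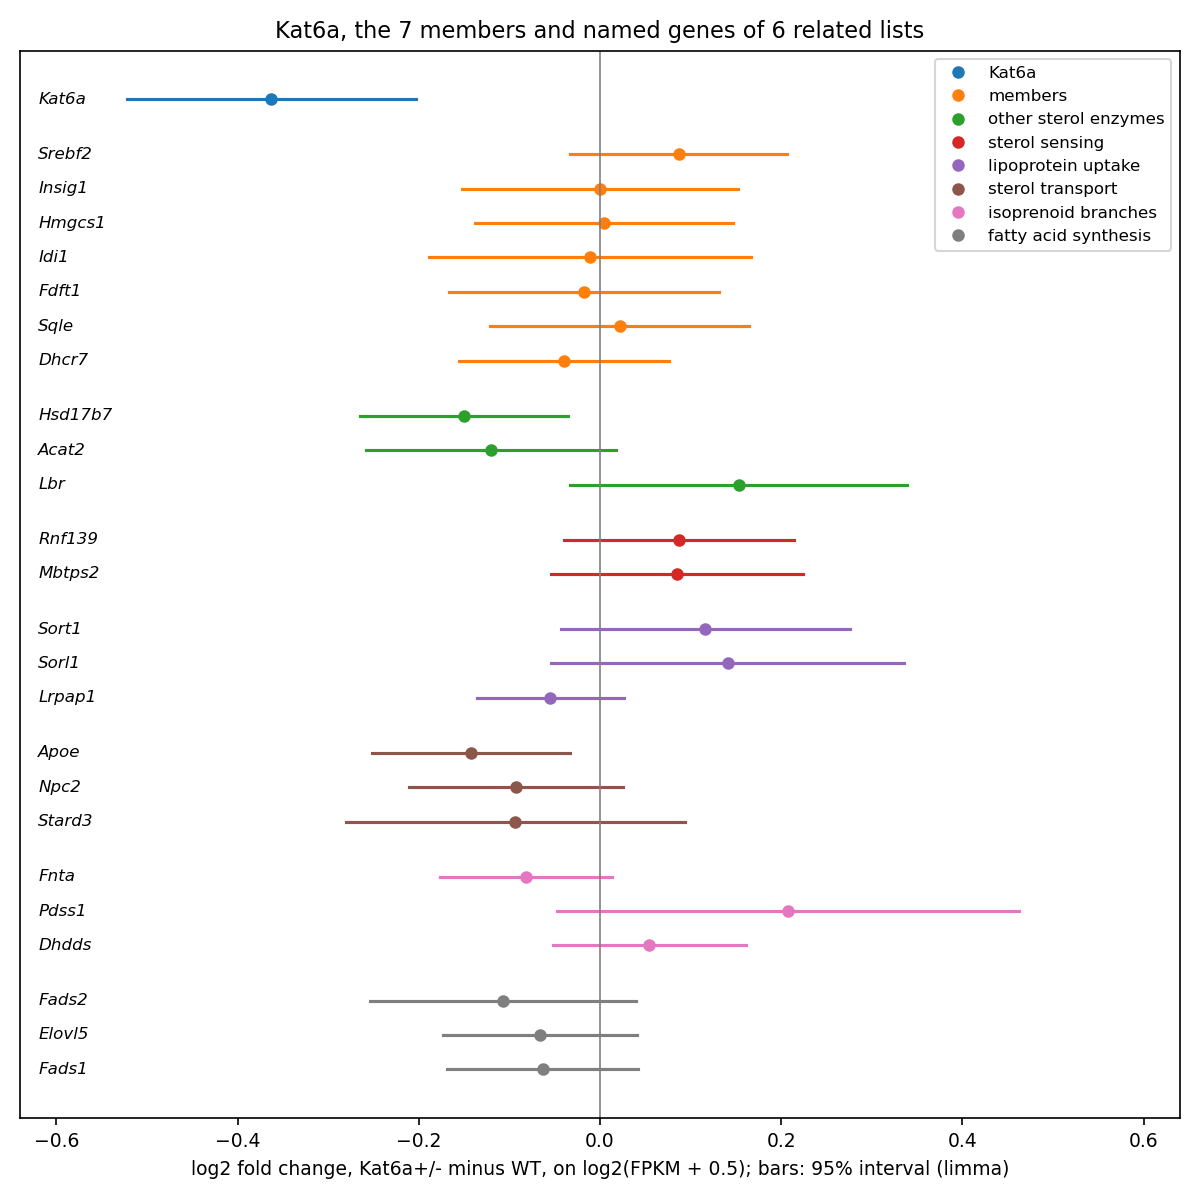
Log2 fold change of Kat6a+/- over WT on the log2(FPKM + 0.5) scale with its 95% interval in limma, for Kat6a, the 7 members and the genes named from the 6 related lists. The 7 member intervals all include 0 and end between -0.19 and 0.21, whereas the interval of Kat6a runs from -0.52 to -0.20.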

How the data were processed

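The submitters' processing notes name the tools STAR 2.5, HTSeq and DESeq2 and the build GRCm38 (mm10). Roles, annotation release and strand setting: not given in the sources used here. RNA was isolated with Trizol and libraries were made with a NEBNext Ultra kit, per the labels' protocols. The authors deposited FPKM per gene and library. Their second table, for 605 genes, holds deposited read counts, FPKM, a normalised signal, log2 fold changes and p-values, per the file headers. FPKM times gene length times 1 constant per library gave whole reads for 100% of values (tolerance 0.01), zeros included. For the 605 genes with deposited counts the recovered reads equalled them, though each constant was set from those same counts. The depths stated are sums of recovered reads, that is, of reads counted to genes. Member coordinates equalled those of GENCODE M21 for 7 of 7 genes.

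The main test was limma 3.58.1 (R 4.3.3) on log2(FPKM + 0.5), with a variance trend, over the 14159 genes averaging 0.5 FPKM or more, two-sided, with Benjamini-Hochberg adjustment over all of them and a threshold of 0.05. This scale understates changes of low genes. edgeR 4.0.16, DESeq2 1.42.0 and limma-voom ran on recovered reads. The tools were tested on simulated reads. Named genes were the members, Kat6a, the 3 with the smallest p in each related list, and the 6 most like the members; 1 of these is not reported here. Members, lists and alternatives were chosen with earlier results of these data known.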

Additional observations from a re-analysis of the deposited data

Results flagged for a closer look

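Within groups of 4 libraries, 1 library stood far from the other 3 in 7 of 52 groups, from 26 genes looked at in each genotype, where chance flags about 1 in 20 independent groups. These groups share the same 8 libraries and hold genes that vary together, so the 2 shares cannot be set against each other. In the members these were Hmgcs1 at 37.3 FPKM in Kat6a+/- replicate 1, against 42.6 to 43.0 FPKM in the other Kat6a+/- libraries, Insig1 at 17.0 FPKM in Kat6a+/- replicate 2, against 15.3 to 15.5 FPKM, and Sqle at 9.32 FPKM in WT replicate 2, against 10.6 to 10.9 FPKM in the other WT libraries. Among the related genes they were Acat2 at 10.9 FPKM and Fads1 at 68.5 FPKM, both highest in Kat6a+/- replicate 2, Mbtps2 at 2.98 FPKM, lowest in WT replicate 1, and Stard3 at 7.25 FPKM, highest in WT replicate 3.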

How the results depend on the processing

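Under all 21 alternatives (8 that leave out 1 library, 13 others) 0 members were called and 0 reached an unadjusted p under 0.05; the lowest was 0.0547, for Srebf2 without Kat6a+/- replicate 1. Srebf2 stayed positive (0.06 to 0.12 when leaving out each library) and Dhcr7 negative (-0.06 to -0.0035, the last without Kat6a+/- replicate 3). The other members, close to 0, changed sign when a library was left out: Hmgcs1 (-0.045 to 0.053), Idi1 (-0.070 to 0.034), Fdft1 (-0.082 to 0.024), Sqle (-0.027 to 0.055) and Insig1 (-0.051 to 0.056). Insig1 was also negative with edgeR (-0.0039 with TMM, -0.0029 with DESeq2 size factors), DESeq2 (-0.0028 on the same genes, -0.0041 on genes with over 1 read) and limma-voom (-0.0012); the cause was not tested. The members' median ran from -0.05 to 0.02 when leaving out each library. Over all genes the count called was 0 to 1 when leaving out each library (1 without WT replicate 3), 5 with DESeq2 on the same genes and 1 on genes with over 1 read, and 0 under the others, with 616 genes at an unadjusted p under 0.05 in edgeR with TMM and 600 in limma-voom.

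Replicate numbers are shared between genotypes, but same-numbered libraries deviated together in replicate 1 alone (r = 0.166; 0.0652, 0.0051 and -0.0749 in the others, across 14159 genes, which are not independent), so the numbers were not taken as pairs. With a replicate block 0 genes were called (770 at an unadjusted p under 0.05); in this balanced design the block leaves each fold change (0.09 for Srebf2) as it is and can move only its p, which was 0.131 for Srebf2. Apoe and Hsd17b7 kept a negative sign in all 21 alternatives, with an unadjusted p under 0.05 in 19 for Apoe and 21 for Hsd17b7. Neither was called in any. The lowest adjusted p was 0.845 for Apoe (limma with a term for replicates 1 and 2 against 3 and 4). For Hsd17b7 it was 0.883 (limma with the replicate block). Both genes were named for their small p in these data, and the alternatives reuse the same libraries, so they add no independent support.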
